A study of Caenorhabditis elegans with 10 samples.

Results

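The 8 genes lipl-1 to lipl-8 of Caenorhabditis elegans encode relatives of the acid lipase that mammalian cells use inside the lysosome. They were picked by name, as the probe sets whose annotation lists exactly 1 gene and that gene is a lipl gene. Each of the 8 had 1 such probe set, among 22548 probe sets for 17118 named genes. The samples were whole young adult worms, sorted by size and grown on OP50 bacteria. The mutant strain carried gas-1(fc21), a missense mutation in a subunit of the mitochondrial electron transport chain. The wild type was N2 (Bristol). Each strain gave 5 biological replicates of 1000 worms, with 1 Affymetrix whole-genome array each. The labels give no batch and do not say whether replicates were grown separately, so the p-values measure the spread between these samples. Whether the products sit in lysosomes, or are active, was not measured here.

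Lysosomal acid lipases release fatty acids from stored lipid that reaches the lysosome, a route known as lipophagy when autophagy delivers the fat. In worms these enzymes are known mainly from the intestine, which is also the main fat store. Several lipl genes are known to be switched on by fasting, through the transcription factor HLH-30, the worm relative of TFEB. The factor MXL-3 holds lipl genes down in fed animals. LIPL-4 is known from longevity work, where its lipid products act through the fatty acid binding protein LBP-8 and the nuclear receptors NHR-49 and NHR-80.

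The deposited values are log2 intensities with array medians between 6.22 and 6.61. Levels of different probe sets cannot be ranked against each other, so each gene is compared with itself. Pearson correlations across probe sets were 0.977 to 0.995 between mutant arrays and 0.954 to 0.996 between wild-type arrays. Mutant replicates 4 and 5 and wild-type replicates 1 and 5 stood apart from the other arrays of their groups. Their mean correlations with the rest of their own group were 0.982 and 0.984 for the mutant arrays and 0.969 and 0.973 for the wild-type arrays, against 0.986 to 0.988 for the other 6. Both gas-1 probe sets read higher in mutant worms, by 0.67 and 0.72 (limma adjusted p = 0.00567 and 0.0108), which says nothing of the labels, since a missense allele need not change the transcript. All 12 intestinal markers listed were measured, with a median difference of -0.14, and 2 of them fell, as given below. The yolk gene vit-6 averaged 13.63 in mutant worms and 13.53 in wild-type worms, vit-2 13.13 and 12.95, and vit-5 13.62 and 13.83. None of these yolk genes was called.

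Of the 8 lipl genes, lipl-1 and lipl-2 rose in the gas-1 mutant, by 3.83-fold and 3.62-fold, and the other 6 did not pass the test. Both folds are set against wild-type levels near those of the array's control probe sets, so they may be lower bounds. A gene was called at a limma p under 0.05 after Benjamini-Hochberg adjustment over all 22548 probe sets. Over all probe sets 7.54% rose and 4.28% fell by this rule, and 11.8% were called in either direction. Among the lipl genes 2 of 8, or 25%, rose and 0 fell, and limma gave the same counts at an unadjusted p under 0.05. At that unadjusted threshold 14.4% of all named genes rose and 11.3% fell. The median difference of the 8 was 0.13 on the log2 scale, against 0.003 over all probe sets. A higher mean in the mutant was found for 5 of the 8, and for 11440 of the 22548 probe sets. These 5 include lipl-8, whose probe set was too dim to read, as described below.

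**Figure D1:**
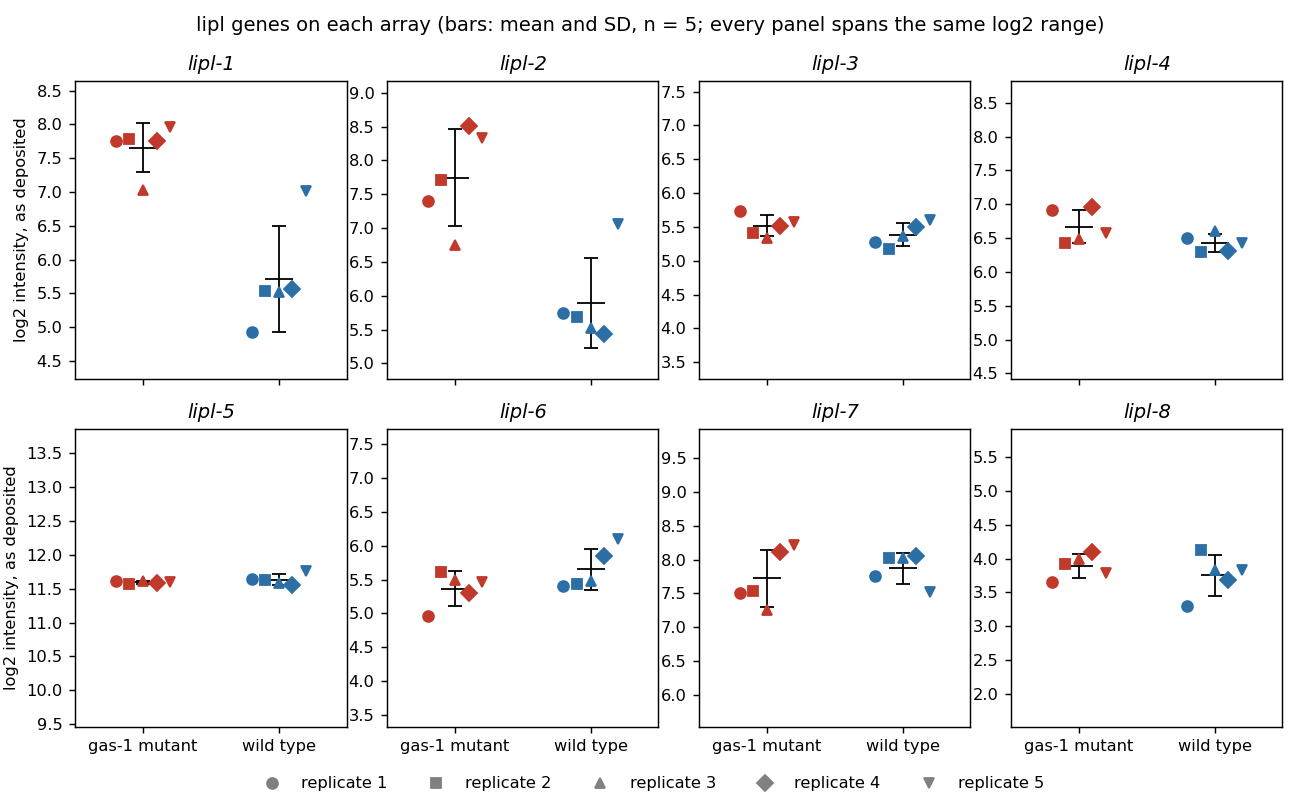
Log2 intensity of each lipl gene on every array, gas-1 mutant on the left and wild type on the right of each panel. Horizontal bars are means and whiskers SDs (n = 5), and every panel spans the same log2 range. For lipl-1 and lipl-2 the mutant arrays lie at 6.76 to 8.51 and wild-type replicate 5 lies above the other wild-type arrays.

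The gene lipl-1 encodes a lipase of this family known to be induced by fasting. Its log2 intensity was 7.75, 7.78, 7.03, 7.76 and 7.95 on mutant replicates 1 to 5, against 4.93, 5.54, 5.53, 5.56 and 7.02 on wild-type replicates 1 to 5. All 5 mutant arrays were above all 5 wild-type arrays, but the margin was narrow. Mutant replicate 3 stood at 7.027 and wild-type replicate 5 at 7.021. The means were 7.65 ± 0.36 in mutant worms and 5.71 ± 0.78 in wild-type worms (SD, n = 5 each). The difference was 1.94 (SE 0.34, 95% interval 1.18 to 2.69, limma adjusted p = 0.00448). An exact 2-sided permutation test over 252 assignments of the arrays gave p = 0.00794, the smallest it can give. Groups did not overlap on 12.9% of all probe sets. The difference of lipl-1 was the 94th highest of the 22548.

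The gene lipl-2, another lipase of the family that fasting is known to induce, moved by nearly the same amount. It stood at 7.40, 7.72, 6.76, 8.51 and 8.34 on mutant replicates 1 to 5, against 5.75, 5.68, 5.53, 5.43 and 7.05 on wild-type replicates 1 to 5. Mutant replicates 4 and 5 were the highest, and wild-type replicate 5 lay above mutant replicate 3, so the groups overlapped. The means were 7.74 ± 0.71 in mutant worms and 5.89 ± 0.66 in wild-type worms (SD, n = 5 each). The difference was 1.85 (SE 0.39, 95% interval 1.00 to 2.71, limma adjusted p = 0.0114, exact permutation p = 0.0159). Without mutant replicates 4 and 5 it was 1.40 and no longer passed (adjusted p = 0.0634), in a fit where 5.13% of all probe sets rose.

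The same wild-type array, replicate 5, was the high one for both genes. With wild-type replicate 5 left out, the differences were 2.27 for lipl-1 (adjusted p = 0.000106) and 2.15 for lipl-2 (adjusted p = 0.0019). These were the largest differences among the 10 fits that each left out 1 array. Mutant replicate 3 was the lowest mutant array for both genes. The 2 genes parted on mutant replicates 4 and 5, where lipl-2 was above all its other mutant values, while lipl-1 was close to mutant replicates 1 and 2.

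The gene lipl-3, a fasting-induced lipase as well, was not called. It had 5.74, 5.41, 5.33, 5.52 and 5.57 on mutant replicates 1 to 5, against 5.28, 5.17, 5.37, 5.50 and 5.61 on wild-type replicates 1 to 5. The difference was 0.13 (SE 0.11, 95% interval -0.11 to 0.36, limma adjusted p = 0.523). The ranges overlapped nearly throughout. The suffix of its probe set marks probes that other transcripts may share, which none of the other 7 has.

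The gene lipl-4, the member tied to longevity, stood at 6.92, 6.43, 6.49, 6.96 and 6.57 on mutant replicates 1 to 5. Wild-type replicates 1 to 5 had 6.50, 6.29, 6.61, 6.31 and 6.43. Mutant replicates 1 and 4 were above every wild-type array and the others lay among them. The difference was 0.24 (SE 0.12, 95% interval -0.03 to 0.51, limma adjusted p = 0.255, exact permutation p = 0.119).

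The gene lipl-5 was the steadiest of the family. It had 11.62, 11.57, 11.61, 11.59 and 11.60 on mutant replicates 1 to 5, against 11.64, 11.63, 11.58, 11.56 and 11.76 on wild-type replicates 1 to 5. Its SD was 0.022 in mutant worms and 0.078 in wild-type worms, each the smallest of the 8. The difference was -0.04 (SE 0.06, limma adjusted p = 0.759), and its 95% interval of -0.18 to 0.10 leaves out a change of the size seen for lipl-1 or lipl-2. LIPL-5 is also known as a fasting-responsive lipase.

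For lipl-6, whose product is named as a lipase by sequence likeness, mutant replicates 1 to 5 had 4.96, 5.61, 5.49, 5.30 and 5.47. Wild-type replicates 1 to 5 had 5.41, 5.43, 5.48, 5.85 and 6.09. Wild-type replicates 4 and 5 were above every mutant array, and the difference was -0.29 (SE 0.16, 95% interval -0.65 to 0.08, limma adjusted p = 0.323). The lipl-8 probe set, for another member named by sequence likeness, was at 3.65 to 4.10 in mutant worms and 3.30 to 4.13 in wild-type worms. Its difference was 0.14 (SE 0.15, limma adjusted p = 0.634).

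Probe sets for Bacillus subtilis genes, put on the array as controls, give a view of the dim end. The median of the 27 such probe sets lay between 4.39 and 4.69 on mutant arrays and between 4.43 and 5.25 on wild-type arrays. The lipl-8 probe set was below this median on all 10 arrays, so it carries no reading of a lipl-8 change. The lipl-1 probe set was above the median on 9 arrays, the exception being wild-type replicate 1, and the other 6 members were above it on all 10. Against the highest control of the same array, lipl-5 was above on all 10 arrays and lipl-7 on 4 of each group. The lipl-1 probe set was above it on 4 mutant arrays and 1 wild-type array, and lipl-2 on 3 mutant arrays and 1 wild-type array. The lipl-3, lipl-4 and lipl-6 probe sets were above it on 0 arrays. In mean level, 11 of the 27 controls were at or above the lowest array of lipl-1, and likewise 11 for lipl-3 and 11 for lipl-6. No source used here says whether matching control RNA was added.

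The gene lipl-7, another member named by sequence likeness, was not called over all 10 arrays and was called lower on a subset of them. It had 7.50, 7.54, 7.25, 8.11 and 8.21 on mutant replicates 1 to 5, against 7.76, 8.02, 8.03, 8.05 and 7.52 on wild-type replicates 1 to 5. Mutant replicates 4 and 5 were the highest of all arrays, and mutant replicates 1 to 3 and wild-type replicate 5 were the 4 lowest. Over all 10 arrays the difference was -0.15 (SE 0.20, 95% interval -0.58 to 0.28, limma adjusted p = 0.698). Without the 4 arrays that stood apart, it was -0.60 (SE 0.09, adjusted p = 0.00334), with 7.43 ± 0.16 in mutant worms and 8.03 ± 0.02 in wild-type worms (SD, n = 3 each). In that reduced comparison 11.2% of all probe sets fell. The arrays left out were chosen after seeing the data and include mutant replicates 4 and 5, the highest for lipl-7. The SE and p-value of the reduced comparison therefore come from a narrowed spread.

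On the same 6 arrays lipl-1 and lipl-2 were called higher, by 1.98 (SE 0.19, limma adjusted p = 0.000423) and 1.74 (SE 0.23, adjusted p = 0.0017). In that comparison 10.3% of all probe sets rose. The arrays left out include wild-type replicate 5, the highest wild-type array for both genes. Their SEs and p-values here therefore also come from a narrowed spread. The wild-type SD was 0.017 for lipl-1, against 0.78 with all arrays, and 0.13 for lipl-2, against 0.66. The remaining 5 members were not called on these 6 arrays, with differences between -0.23 and 0.21.

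**Figure D2:**
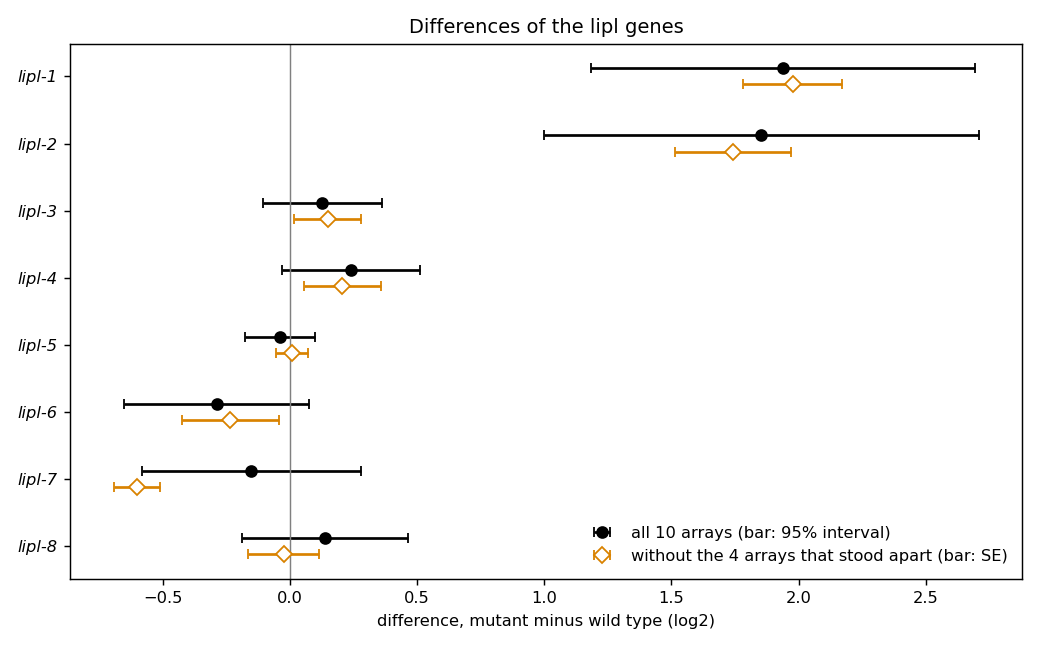
Difference of each lipl gene, mutant minus wild type, in log2 units. Filled circles use all 10 arrays with 95% intervals, and open diamonds leave out the 4 arrays that stood apart, with standard errors. The intervals of lipl-1 and lipl-2 lie above 0 in the first comparison, and lipl-7 is at -0.15 with all arrays and at -0.60 without the 4.

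Whether the members moved by different amounts was tested in pairs. These tests were added after lipl-1 and lipl-2 had been called on the same values, so they are not independent of those calls. For each of the 28 pairs of members, 1 gene's log2 value was taken from the other's on each array, and the result was compared between genotypes by an exact 2-sided permutation test. The 7 pairs with lipl-8 are not read, since its probe set was below the control median. The lipl-3, lipl-4 and lipl-6 probe sets were above the highest control on 0 arrays, and pairs that hold them carry that limit. The response of lipl-1 exceeded that of each of lipl-3 to lipl-7, by 1.70 to 2.23 (exact p of 0.00794 or 0.0159, 0.0404 each after adjustment over the 28 pairs). The response of lipl-2 exceeded those of lipl-3 and lipl-5 to lipl-7, by 1.73 to 2.14 (adjusted p = 0.0404 each, exact permutation tests). Against lipl-4 the excess of lipl-2 was 1.61 and missed the threshold (exact p = 0.0238, adjusted p = 0.0556). Between lipl-1 and lipl-2 the responses differed by 0.08 (exact p = 0.754). Of the 10 pairs among lipl-3 to lipl-7, 0 passed after adjustment and 1 had an exact p under 0.05 before it.

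Sperm transcripts differed widely between these arrays, in an order that lipl-1, lipl-2 and lipl-7 followed in part. The mean log2 level of 29 measured sperm markers was 7.21, 7.14, 7.22, 9.97 and 9.88 on mutant replicates 1 to 5, with wild-type replicate 5 at 8.53 and the other wild-type arrays at 10.92 to 11.01. Their summed linear intensity was 5349 to 55471 in mutant worms and 17110 to 123663 in wild-type worms. Of the 29, 0 rose and 3 fell (limma, or 0 and 26 at an unadjusted p under 0.05), and no marker was at 0 on any array. Of all named genes 4.47% fell by the first threshold and 11.3% by the second. Wild-type replicate 5, the high wild-type array for lipl-1 and lipl-2, had the lowest sperm level of its group.

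Within the mutant, the sperm level was higher on replicates 4 and 5, which also differed in markers of other tissues, as given below. Mutant replicates 4 and 5 had lipl-1 at 7.76 and 7.95 and lipl-2 at 8.51 and 8.34, the highest lipl-2 values of all. For lipl-7 the 4 arrays with the lowest sperm level, mutant replicates 1 to 3 and wild-type replicate 5, were also the 4 lowest for lipl-7. Body wall muscle markers moved with lipl-7 too. The mean log2 level of their 8 genes was 10.98 and 10.96 on mutant replicates 4 and 5 and 10.08 to 10.20 on mutant replicates 1 to 3, with wild-type replicate 5 at 9.65 and the other wild-type arrays at 10.27 to 10.51. Mutant replicates 4 and 5 were also the highest of all arrays, and wild-type replicate 5 the lowest, in the hypodermal and the neuronal markers. The hypodermal means were 10.77 and 10.73 on mutant replicates 4 and 5 and 9.77 on wild-type replicate 5, and the neuronal means 8.40, 8.40 and 7.44. The part of sperm, muscle, hypodermal or neuronal content in these results was not tested. In whole worms, fewer cells of a type and less RNA per cell cannot be told apart.

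**Figure D3:**
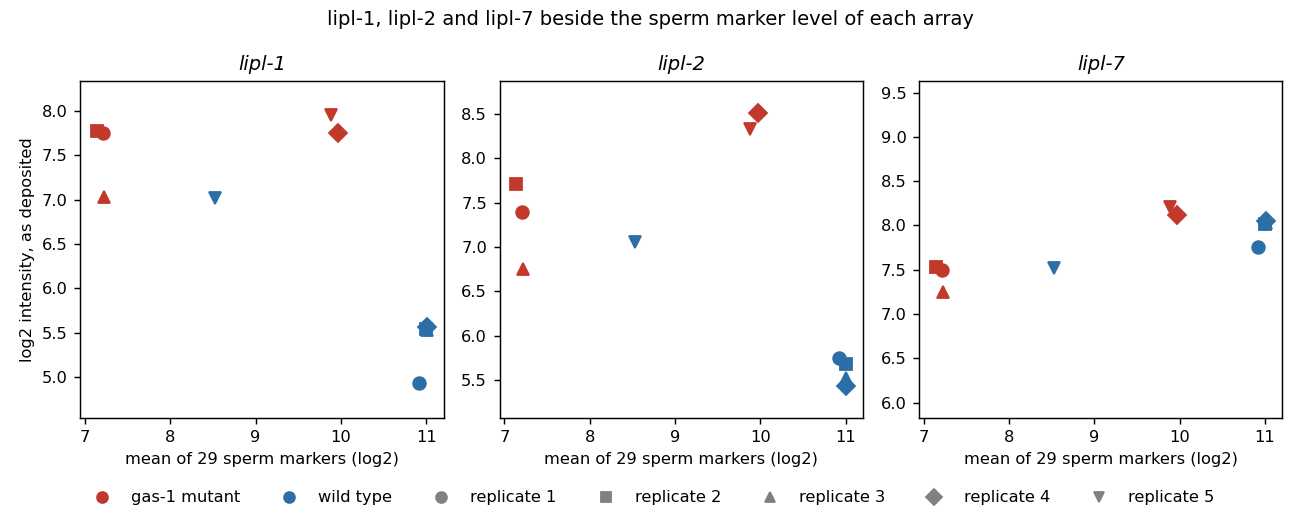
Log2 intensity of lipl-1, lipl-2 and lipl-7 on each array, set against the mean log2 level of 29 sperm markers on that array. Red points are gas-1 mutant arrays and blue points wild-type arrays, with the replicate shown by the shape. Mutant replicates 4 and 5 combine sperm levels of 9.97 and 9.88 with high lipl-1 and lipl-2, and the 4 lowest lipl-7 values lie at sperm levels up to 8.53.

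Of the 12 intestinal markers 0 rose and 2 fell by limma (2 and 3 at an unadjusted p under 0.05), with a median difference of -0.14. Their summed linear intensity was 53921 to 57821 in mutant worms and 61907 to 65128 in wild-type worms. That sum is weighted to the brightest genes. Their mean log2 level overlapped between the groups, at 10.56 to 10.96 in mutant worms and 10.72 to 11.03 in wild-type worms. The 2 that fell were the protease gene cpr-1 (-1.37, limma adjusted p = 0.000263) and the peptide transporter gene pept-1 (-0.95, adjusted p = 0.0377). Among markers of other tissues, 1 of 8 muscle genes rose, 1 of 10 neuronal genes rose and 1 of 12 oocyte and germline genes fell. Of 9 hypodermal and 3 coelomocyte genes 0 were called. At an unadjusted limma p under 0.05, 2 muscle, 3 neuronal and 1 hypodermal genes rose. By the same threshold 2 oocyte and germline genes fell and 0 coelomocyte genes passed. Of all named genes 7.55% rose and 4.47% fell, or 14.4% and 11.3% at the unadjusted threshold. The part of tissue composition in the lipl results was not tested.

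Genes that act around the lysosomal lipases were read from 4 lists, chosen for their roles. Of 58 measured genes 7 rose and 3 fell, or 17.2%, against 12% of all named genes on 1 probe set each, of which 7.55% rose and 4.47% fell. Among the regulators 3 of 10 rose, 0 fell and 7 did not pass, and all 10 had a higher mean in the mutant, with a median difference of 0.26. Over all named genes 8564 of 17118 had a higher mean, with a median difference of 0. The smallest of the 10 was nhr-49 at 0.01. Its sign turned without the 4 arrays that stood apart (-0.077), while the other regulators kept theirs. Other lipases had 2 of 21 that rose and 0 that fell. Fatty acid binding proteins had 1 of 9 that rose and 0 that fell. Lysosomal genes had 1 of 18 that rose and 3 that fell. At an unadjusted limma p under 0.05, the rises were 6, 5 and 3 in the regulator, lipase and binding protein lists, with 0 falls in each, and the lysosome list had 3 rises and 4 falls. By that threshold 14.4% of all named genes rose and 11.3% fell.

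**Figure D4:**
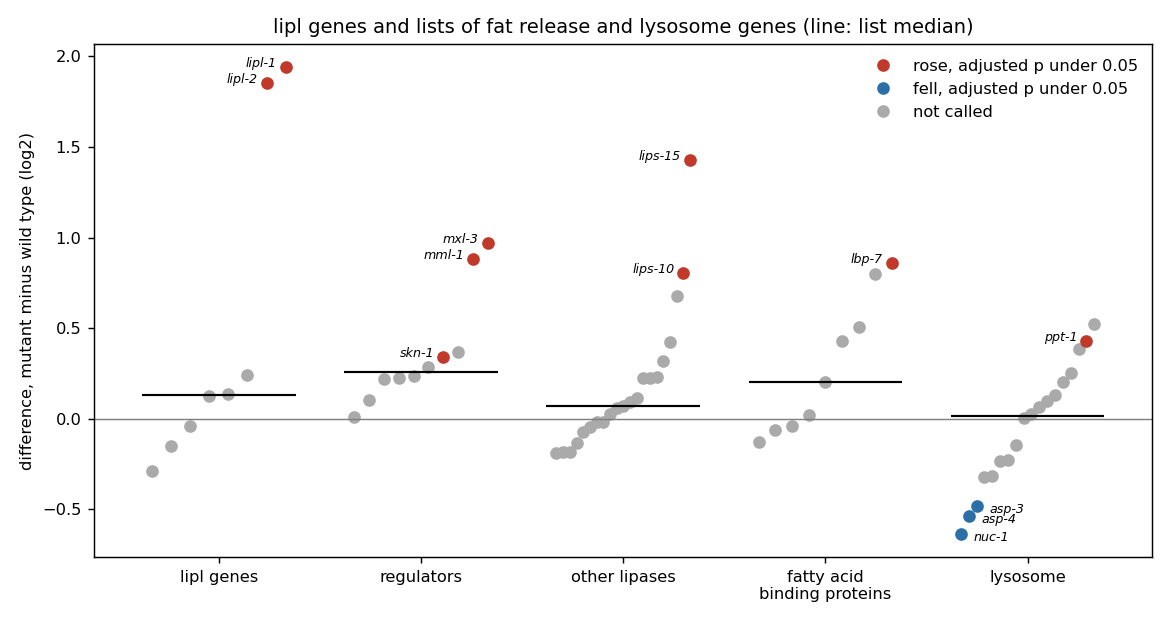
Difference of each gene, mutant minus wild type, in log2 units, for the lipl genes and 4 lists of related genes. Red points rose and blue points fell at an adjusted p under 0.05, grey points were not called, and horizontal lines are list medians. The highest points, lipl-1 at 1.94 and lipl-2 at 1.85, exceed those of all 4 lists, where lips-15 leads at 1.43.

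Among the regulators, hlh-30 was not called. Its log2 intensity was 7.77 ± 0.42 in mutant worms and 7.55 ± 0.39 in wild-type worms (SD, n = 5 each), a difference of 0.22 (SE 0.23, limma adjusted p = 0.63). The difference was -0.09 without mutant replicates 4 and 5. The transcript of mxl-3, whose product is the repressor of lipl genes in fed worms, rose 1.96-fold (0.97, SE 0.24, adjusted p = 0.0282). It lay at 9.65 to 10.92 in mutant worms and 9.23 to 9.35 in wild-type worms, with no overlap. That call was lost without mutant replicate 4 or 5 or wild-type replicate 2, 3 or 4 (adjusted p = 0.0523 to 0.0674). Without the 4 arrays that stood apart the mxl-3 difference was 0.54 (adjusted p = 0.0179).

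The Mondo-family factor mml-1 rose 1.84-fold (0.88, SE 0.18, limma adjusted p = 0.0091), or by 0.55 without the 4 arrays, and skn-1, a factor of oxidative stress and lipid metabolism, rose 1.27-fold (0.34, SE 0.06, adjusted p = 0.00684). The skn-1 call was lost with arrays centred on their medians (0.29, adjusted p = 0.154). The insulin-pathway factor daf-16 differed by 0.24 (SE 0.10, adjusted p = 0.176). The receptor genes downstream of LIPL-4 were not called. The difference was 0.01 for nhr-49 (SE 0.08, adjusted p = 0.964) and 0.22 for nhr-80 (SE 0.13, adjusted p = 0.326).

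In the other lipase list, lips-15 rose 2.69-fold (1.43, SE 0.20, limma adjusted p = 0.00105). It lay at 8.57 to 8.89 in mutant worms and 6.53 to 7.68 in wild-type worms. The gene lips-10 rose 1.74-fold (0.80, SE 0.17, adjusted p = 0.0107), or by 0.51 without the 4 arrays, and was not called without mutant replicates 4 and 5 (adjusted p = 0.0691). Both are named as lipase-related genes by sequence. The gene atgl-1, the triglyceride lipase of lipid droplets, stood at 10.46 ± 0.07 in mutant worms and 10.23 ± 0.08 in wild-type worms (SD, n = 5 each). Its difference of 0.23 (SE 0.07) was just short of the threshold (adjusted p = 0.0522). It was called in 6 of the alternative fits and not in 13. The limma adjusted p was 0.00867 with array weights, 0.0439 without the 4 arrays and 0.293 with centring.

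Of the fatty acid binding proteins, which carry lipids inside and between cells, lbp-7 rose 1.81-fold (0.86, SE 0.18, limma adjusted p = 0.0113). It lay at 8.69 to 9.63 in mutant worms and 8.22 to 8.43 in wild-type worms. The gene lbp-8, the carrier known to act after LIPL-4, averaged 3.97 ± 0.51 in mutant worms and 3.54 ± 0.60 in wild-type worms (SD, n = 5 each). Both means were below the control medians of all arrays, and the difference was not called (0.43, SE 0.31, adjusted p = 0.456).

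The lysosomal genes that fell encode digestive hydrolases. The acid nuclease gene nuc-1 was 1.55-fold lower (-0.64, SE 0.10, limma adjusted p = 0.00175), and the aspartyl protease genes asp-4 and asp-3 were 1.45-fold (-0.54, SE 0.12, adjusted p = 0.0165) and 1.40-fold lower (-0.48, SE 0.08, adjusted p = 0.00227). The gene ppt-1, for a palmitoyl-protein thioesterase, rose 1.35-fold (0.43, SE 0.09, adjusted p = 0.0137). It lay at 5.87 to 6.22 in mutant worms and 5.40 to 5.75 in wild-type worms, below the highest control of every array. Without mutant replicates 4 and 5 neither asp-4 (adjusted p = 0.0922) nor ppt-1 (adjusted p = 0.0586) was called, and asp-4 was not called with centring (adjusted p = 0.0527). Without the 4 arrays that stood apart, 6 of the 18 lysosomal genes fell and 1 rose, in a fit where 11.5% of all named genes fell and 10.4% rose.

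The genes whose pattern over the 10 arrays was nearest to that of lipl-1 were ranked by root mean square difference, after each probe set's own mean was subtracted. The 5 nearest of 17117 other genes were lgmn-1 at 0.196, fbxa-60 at 0.224, peb-1 at 0.23, hpo-15 at 0.237 and fbxa-162 at 0.28 on the log2 scale. The first encodes a legumain, a cysteine protease known from mammalian lysosomes. Its log2 intensity was 10.77 to 11.37 in the mutant, with wild-type replicate 5 at 10.44 and the other wild-type arrays at 8.60 to 8.94. All 5 shared the raised wild-type replicate 5 with lipl-1. On the other wild-type arrays peb-1 lay at 3.93 to 5.02 and fbxa-162 at 4.04 to 4.84. These levels are near the wild-type control medians of 4.43 to 5.25, so both genes carry the limit of dim probe sets. The gene lipl-2 was the 25th nearest at 0.382, and the next lipl gene, lipl-3, came 3237th at 1.01. The ranking uses the same arrays as the differences and carries no test. Suffixes marking shared probes are also found on the probe sets of gas-1, daf-16, nhr-80, lbp-8, asp-4, fbxa-60 and hpo-15.

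No measured neighbour of lipl-1 or lipl-2 on the chromosome was called. In the order of protein-coding genes in the RefSeq table of assembly WBcel235, no 2 lipl genes were next to each other. Of the 16 nearest neighbours 12 were measured, 1 rose and 0 fell. Of all named genes 7.55% rose and 4.47% fell. The neighbours of lipl-1 were nid-1 (0.12, limma adjusted p = 0.638) and dhrs-4 (0.42, adjusted p = 0.257), and those of lipl-2 were ztf-7 (0.03, adjusted p = 0.828) and F46B6.9 (0.18, adjusted p = 0.671). The neighbour that rose was ech-8, beside lipl-7 (1.31, SE 0.22, adjusted p = 0.0038).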

How the data were processed

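Per the labels, total RNA from 5 gas-1 mutant and 5 wild-type samples was put on 1 array each. The authors deposited 1 table, and its unit was read as log2 from the range of the values, 0 to 14.21. No source used here names the scanner software, background correction, probe set summary or normalization. Array medians differed by 0.387. Values were used as deposited, since the rule set quantile normalization for a range above 0.5. Of 22625 probe sets, 77 Affymetrix controls were left out, with no filter on dim ones. Names came from the platform annotation, updated through RefSeq gene identifiers (WBcel235): 20766 probe sets had 1 gene (20701 matched RefSeq), 887 several and 895 none. For lists, each gene used its probe set with the highest mean. Precision is limited by the number of arrays.

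Genotype was the only term in limma 3.58.1 (R 4.3.3, lmFit and eBayes, 2-sided, Benjamini-Hochberg over all 22548 probe sets). Differences are mutant minus wild type, with SE from limma. The fit was tested on simulated data. Any 2 arrays differed in at least 99.7% of values, so none was a duplicate. The members and lists were chosen with earlier results of these data known. Named were all members, up to 4 called genes per list with the largest change, 7 genes fixed for their roles, and the 5 genes nearest to the called member with the largest difference. The pair tests, the chromosome neighbours and the fits without the arrays that stood apart were added after seeing the data. Alternatives covered scaling, dim probe sets, the prior, array weights, the replicate block, a stricter threshold and leaving out arrays. Same-numbered replicates were not treated as pairs.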

Additional observations from a re-analysis of the deposited data

Results flagged for a closer look

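In all, 5 values stood further from the rest of their group than Dixon's 95% limit for 5 samples allows, out of 48 groups examined, where chance gives about 1 in 20. For lipl-1, mutant replicate 3 was at 7.027, below the other mutant arrays at 7.75 to 7.95. For lipl-2, wild-type replicate 5 was at 7.054, above the other wild-type arrays at 5.43 to 5.75. Wild-type replicate 5 was also the distant array for lips-15 at 6.534, for lips-10 at 7.388 and for asp-4 at 11.779. The other wild-type arrays were at 7.35 to 7.68 for lips-15, 8.11 to 8.18 for lips-10 and 11.18 to 11.24 for asp-4. Its value lay toward the mutant level for lipl-2 and away from it for lips-15, lips-10 and asp-4.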

How the results depend on the processing

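Of 146 refits of the 8 members, 141 kept direction and side of the threshold. The exceptions were lipl-2 without mutant replicates 4 and 5 (1.40), lipl-7 with array weights (-0.43, adjusted p = 0.047) and without the 4 arrays that stood apart (-0.60), and a change of sign without those 4 arrays for lipl-5 (0.008) and lipl-8 (-0.024). The cause was not tested. The lipl-7 difference was -0.45 (adjusted p = 0.106) without mutant replicates 4 and 5. With 1 array left out at a time, lipl-1 ranged from 1.74 to 2.27 and lipl-2 from 1.66 to 2.15. The number of lipl genes that rose stayed at 2, and was 1 without mutant replicates 4 and 5 and 1 at an adjusted p under 0.01. The number that fell was 1 with array weights and 1 without the 4 arrays, against 0.

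In the 4 lists, 7 rose and 3 fell. The rises were 3 at an adjusted p under 0.01, 3 with the replicate block and 13 with array weights, and the falls were 8 with array weights and 9 without the 4 arrays. Leaving out 1 array gave 6 to 8 rises and 3 to 4 falls. The sign of nhr-49 turned under quantile normalization (-0.012), centring (-0.04), array weights (-0.013), without the 4 arrays (-0.077) and without mutant replicates 4 and 5 (-0.093), and it ranged from -0.04 to 0.048 with single arrays left out. That of hlh-30 turned without mutant replicates 4 and 5 (-0.088).

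Same-numbered mutant and wild-type arrays did not deviate together (r from -0.175 to 0.098 over the 5 numbers), so the numbers were not read as pairs. With the replicate block lipl-1 stayed at 1.94 (adjusted p = 0.0115) and lipl-2 at 1.85 (adjusted p = 0.0149), while mxl-3, lips-10, asp-4, ppt-1 and skn-1 were no longer called. Over all probe sets quantile normalization gave 1561 rises and 1315 falls, against 1701 and 964 as deposited. The probe sets of lipl-8 and lbp-8 were too dim against the controls to limit a change.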
